A study of Arabidopsis thaliana with 12 samples.

Results

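The genes *atpI*, *atpH*, *atpF* and *atpA* lie next to each other on the minus strand of the Arabidopsis chloroplast genome (TAIR10), in this order along the transcript. Their RNA was followed in anti-YFP precipitates and inputs of a line with *At*MKIP1-YFP and a control line with *At*BE3-YFP. The members are the minus-strand segments that overlap nt 9900 to 14800. They number 93 of the 555 segments of the precipitate table and 32 of the 574 segments of the input table, over 4 of the 103 genes of the mapped part. In the first line the *UBQ10* promoter drives *At*MKIP1-YFP in the *mkip1-2* mutant. In the other the same promoter drives *At*BE3-YFP, a plastid starch branching enzyme with the same tag, in Col-0, which keeps its own MKIP1. For each of these lines 3 pools of 10-day-old seedlings, 10 g each, were extracted, bound to anti-YFP beads and sequenced as precipitate and as input, which gives 12 libraries. A library held 119799 to 319005 mapped reads among the precipitates and 2213500 to 2868106 among the inputs. Reads were mapped to the plastid genome alone, so neither the transgenes nor markers of seedling tissues could be checked.

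The 4 genes encode subunits of the chloroplast ATP synthase, which makes ATP from the proton gradient across the thylakoid membrane. *atpI* encodes subunit a of the membrane part CF0, *atpH* the subunit c that forms its rotating ring, *atpF* a subunit b of the stalk, and *atpA* the α subunit of the catalytic part CF1. In land plants these genes are transcribed together as polycistronic RNA and cut into shorter forms, and *atpF* holds a group IIA intron. Most introns of this class are bound by the plastid maturase MatK, which likely helps to splice them. The study found *At*MKIP1 among the partners of MatK and compared the baits to find which plastid RNAs go with it. The question here is how far the bait difference runs from the *atpF* intron into the exons, the spacers and the neighbouring genes.

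In the annotation, *atpF* exon 1 spans nt 12654 to 12798, the intron nt 11939 to 12653 and exon 2 nt 11529 to 11938. The 715-nt intron starts with GTGTG and ends with AT. The stretches below, read from the RefSeq chloroplast sequence as RNA-sense DNA, are those on which the results turn. In the first, which joins exon 1 to the intron (Pt:12629-12704, minus strand), capitals mark the exon. In the second (Pt:12065-12138) they mark the segment with the highest fold change, and in the third (Pt:12178-12234) the intron segment with the most *At*MKIP1-YFP reads. In the fourth, which joins the intron to exon 2 (Pt:11914-11963), they mark the exon. In the fifth (Pt:11845-11910) they mark 46 nt of exon 2 without a called bait difference.
5′ splice junction: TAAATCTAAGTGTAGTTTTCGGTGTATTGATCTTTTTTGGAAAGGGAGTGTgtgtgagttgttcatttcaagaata
highest fold change: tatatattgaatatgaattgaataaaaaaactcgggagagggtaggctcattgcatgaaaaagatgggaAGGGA
most reads: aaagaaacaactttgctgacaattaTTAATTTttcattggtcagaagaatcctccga
3′ splice junction: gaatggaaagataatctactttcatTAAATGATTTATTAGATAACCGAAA
exon 2 stretch: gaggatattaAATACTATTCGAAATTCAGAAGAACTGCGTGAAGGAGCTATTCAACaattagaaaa

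Along the cluster, *At*MKIP1-YFP precipitates were higher than *At*BE3-YFP precipitates from the end of the *atpH*-*atpF* spacer to near the end of *atpF*, and lower or not called outside it. Of 92 segments tested, 70 passed as higher and 11 as lower, with an adjusted p below 0.01 (edgeR quasi-likelihood test, Benjamini-Hochberg over all segments of the table, mapped reads as library size). Among all precipitate segments, 72.3% of 553 were higher and 15.2% lower, so the share of higher segments in the cluster is near the background. The 81 calls count segments with a median length of 13 nt whose borders DiffSegR set on the same contrast, and a read counts in every segment it overlaps. The calls are therefore not independent of one another, and p-values do not allow for the choice of borders. Leaving out each library in turn kept 77 of the 81 calls. Counted as sequence, the higher segments covered 939 nt, made up of 499 nt of the intron, 93 of the 145 nt of exon 1, 334 of the 410 nt of exon 2 and 13 of the 463 nt of the *atpH*-*atpF* spacer. None covered *atpI*, *atpH* or *atpA*. Log2 fold changes over 2, that is over 4-fold, covered 334 nt of the intron, 51 nt of exon 1 and 49 nt of exon 2. Without each library in turn the intron had 328 to 373 nt over 4-fold and exon 1 had 51 nt. Exon 2 had 9 nt without *At*BE3-YFP replicate 3, 27 nt without replicate 1 and 67 nt without replicate 2.

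**Figure D1:**
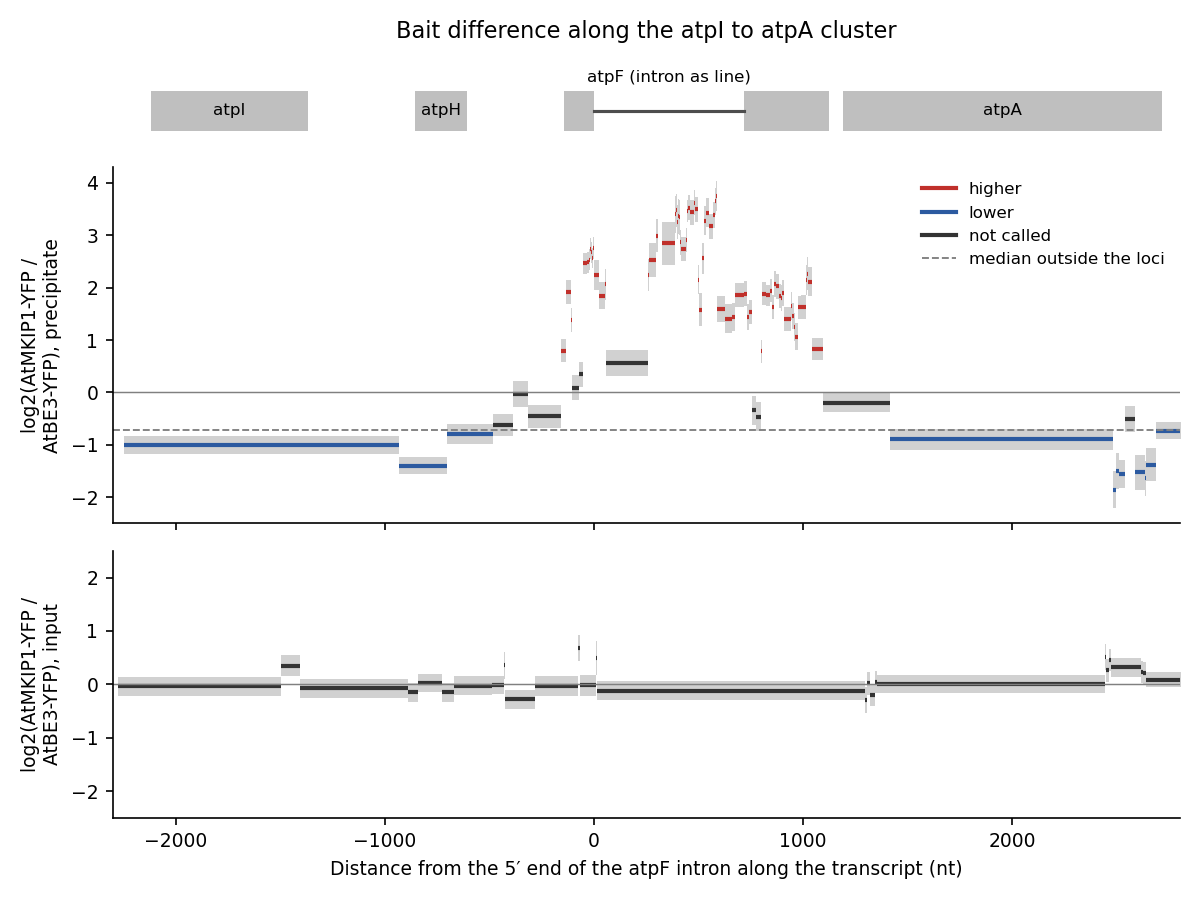
Log2 ratio of *At*MKIP1-YFP to *At*BE3-YFP for each segment of the precipitates (upper panel) and inputs (lower panel), against the distance in nt from the 5′ end of the *atpF* intron along the transcript. Horizontal lines are segments, grey bands ± 1 SE, colours the calls, and the dashed line the median of precipitate segments outside the enriched loci. The red segments sit within and just beside *atpF*, where the precipitate ratio reaches 3.75, and no input segment was called.

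Within the *atpF* intron 35 of 36 tested segments were higher and 29 were over 4-fold, against 50.3% of all precipitate segments. They fell into several stretches. The highest fold change, at nt 12065 to 12069, rested on 1354, 1339 and 1291 reads per 1000000 mapped reads (RPM) with *At*MKIP1-YFP, against 62.3, 124 and 100.2 with *At*BE3-YFP. Every *At*MKIP1-YFP pool was over 10 times as high as every *At*BE3-YFP pool there, and the fitted log2 fold change was 3.75 (SE 0.28, n = 3 pools per bait, edgeR adjusted p = 3.4e-08). It ended a run of 74 nt, nt 12065 to 12138, in which each of 7 segments was over 4-fold. The intron segment with the most *At*MKIP1-YFP reads lay 5′ of this run, at nt 12203 to 12209, with 5310, 3812 and 3689 RPM in *At*MKIP1-YFP precipitates, against 355, 408 and 392 in *At*BE3-YFP precipitates. These 7 nt are A and T alone. They belong to a longer run of 15 segments, nt 12151 to 12329, with log2 fold changes of 2.16 to 3.63. A further run covered nt 12347 to 12397, where the log2 fold change was 2.24 to 3.00.

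The difference was not even along the intron. With mapped reads as library size, the only tested intron segment without a call was nt 12398 to 12596. It had 590, 646 and 809 RPM in *At*MKIP1-YFP precipitates, against 361, 524 and 501 in those of *At*BE3-YFP. The pools did not overlap, but the log2 fold change of 0.56 (SE 0.24) had an edgeR adjusted p of 0.041. The lowest coverage of both baits was at nt 12330 to 12346, with 7, 9 and 9 reads in *At*MKIP1-YFP precipitates and 1, 3 and 0 in *At*BE3-YFP precipitates, and it was filtered out as too low to test. Toward the 3′ end, nt 11980 to 12064 had log2 fold changes of 1.41 to 1.59, with 194 to 367 RPM with *At*MKIP1-YFP and 62.3 to 132 with *At*BE3-YFP. The 334 nt over 4-fold had a GC content of 27.5%, and the remaining 381 nt of the intron 32.5%.

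**Figure D2:**
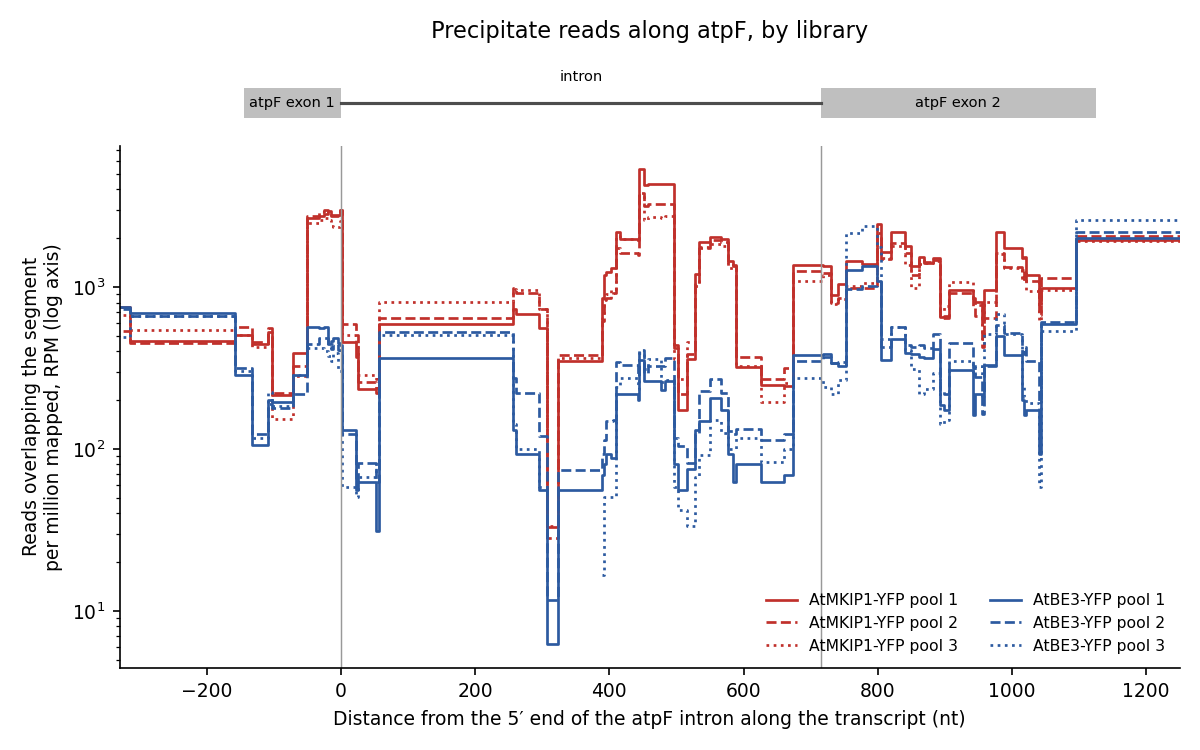
Reads overlapping each segment in RPM (log axis) in the 3 *At*MKIP1-YFP pools (red) and the 3 *At*BE3-YFP pools (blue) of the precipitates, against the distance in nt from the 5′ end of the *atpF* intron; vertical lines mark the intron ends, and a gap marks a count of 0. The red lines lie above the blue ones over most of the intron and exon 2, and they overlap at nt 11855 to 11900 of exon 2, where *At*MKIP1-YFP pools have 978 to 1434 RPM and *At*BE3-YFP pools 966 to 2379 RPM, and at nt 12705 to 12756 of exon 1.

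At the 5′ splice junction both baits had more reads on the exon than on the intron side. The 2-nt segment that holds the last base of exon 1 and the first of the intron had 2962, 2997 and 2544 RPM with *At*MKIP1-YFP and 436, 380 and 301 with *At*BE3-YFP. The log2 fold change of 2.92 (SE 0.21, edgeR adjusted p = 2.6e-08) was the highest over exon 1. In the next 22 nt of the intron the values were 455, 589 and 504 with *At*MKIP1-YFP and 131, 124 and 58.4 with *At*BE3-YFP. The edge segment thus had 6.52, 5.09 and 5.05 times the reads of its intron neighbour in *At*MKIP1-YFP precipitates, and 3.33, 3.06 and 5.14 times in *At*BE3-YFP precipitates, so the step was seen with both baits and the pools overlapped. Spliced and unspliced RNA both give reads on the exon, and the segment counts do not separate them.

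The difference in exon 1 was unevenly spread. Its 51 nt next to the intron were over 4-fold higher, with log2 fold changes of 2.47 to 2.92, and the whole of this part is the capital stretch of the first sequence. Immediately 5′ of it, at nt 12705 to 12724, reads dropped to 389, 326 and 280 RPM with *At*MKIP1-YFP, against 287, 217 and 284 with *At*BE3-YFP, and the log2 fold change was 0.35 (SE 0.24, adjusted p = 0.17). Within each library, the segment 3′ of this border had 6.87, 8.44 and 8.87 times the reads of the segment 5′ of it in *At*MKIP1-YFP precipitates, against 1.98, 2.04 and 1.47 times in *At*BE3-YFP precipitates. The next 32 nt had the lowest value of the exon, 0.09 (SE 0.24). At the 5′ end of exon 1 the ratio was higher again, at 1.38 for nt 12757 to 12761 and 1.92 (SE 0.23) for nt 12762 to 12786. As a whole, exon 1 had a log2 fold change of 2.45 (SE 0.16, edgeR adjusted p = 2.5e-10) from summed counts and 1.41 as a mean of its segments weighted by length.

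With mapped reads as library size, exon 2 was higher over 81.5% of its length, against 64.1% of exon 1 and 69.8% of the intron. This order depends on the threshold. With an adjusted p below 0.05 the intron was higher over 97.6% and exon 2 still over 81.5%. Summed over the segments of exon 2 the log2 fold change was 1.35 (SE 0.15, edgeR adjusted p = 3.1e-07), and the length-weighted mean was 1.20. Of 27 segments 25 were higher and 6 over 4-fold, against 72.3% and 50.3% of all 553 precipitate segments. The share over 4-fold in exon 2 was thus below that of all segments. The segment across the intron-exon 2 junction, nt 11935 to 11979, had 1359, 1244 and 1093 RPM with *At*MKIP1-YFP, against 380, 349 and 275 with *At*BE3-YFP. That segment lies mostly in the intron, which ends at nt 11939. The shorter segment beside it, nt 11980 to 11993, had 244, 317 and 254 with *At*MKIP1-YFP and 68.5, 124 and 100.2 with *At*BE3-YFP. A longer segment is overlapped by more reads, so these values do not show a step at the junction. The 2 segments that were not called form the capital stretch of the fifth sequence, nt 11855 to 11900. At nt 11855 to 11877 the *At*MKIP1-YFP precipitates had 1373, 981 and 1048 RPM and the *At*BE3-YFP precipitates 1346, 1017 and 2379, which overlap. The log2 fold change was -0.47 (SE 0.28, adjusted p = 0.12), and without *At*BE3-YFP replicate 3 it was -0.06. Against the neighbouring segment on the 5′ side, the upstream of these segments had 1.38, 1.14 and 1.20 times the reads with *At*MKIP1-YFP and 3.92, 2.83 and 8.03 times with *At*BE3-YFP. Against the neighbour on the 3′ side, the downstream one had 0.563, 0.470 and 0.490 times the reads with *At*MKIP1-YFP and 1.24, 0.970 and 1.35 times with *At*BE3-YFP.

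Near the end of the gene the difference increased once more and then ended. Over nt 11611 to 11638 all 4 segments were over 4-fold, with log2 fold changes of 2.12 to 2.45, the highest values of exon 2. Without *At*BE3-YFP replicate 1, nt 11614 to 11632 was at 1.93 and nt 11636 to 11638 at 1.96. Without *At*BE3-YFP replicate 3 nt 11614 to 11632 was at 1.99, and without *At*MKIP1-YFP replicate 1 nt 11636 to 11638 was at 1.99. All of these stayed called. Their 3′-most segment, nt 11611 to 11613, had 792, 674 and 619 RPM with *At*MKIP1-YFP, against 93.4, 198 and 58.4 with *At*BE3-YFP. The last called segment on this side was nt 11559 to 11610, with 979, 1138 and 962 with *At*MKIP1-YFP and 586, 606 and 534 with *At*BE3-YFP (log2 fold change 0.83, SE 0.21, edgeR adjusted p = 0.0021). It ends 30 nt before the end of *atpF* and 380 nt from the intron. Without *At*MKIP1-YFP replicate 2 its adjusted p was 0.029, and the called region then ended 328 nt from the intron.

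Downstream, the segment that covers the end of *atpF*, the 67-nt spacer and the start of *atpA* (nt 11241 to 11558) had 1935, 2053 and 1913 RPM in *At*MKIP1-YFP precipitates, against 1993, 2178 and 2596 in *At*BE3-YFP precipitates. Its log2 fold change was -0.19 (SE 0.17, adjusted p = 0.30). *atpA* itself was lower, at -0.89 (SE 0.19, edgeR adjusted p = 2.4e-04), with 7 of its 9 segments lower, which the 15.2% of all segments is read against. The main body, nt 10175 to 11240, had 1584, 1624 and 1279 RPM with *At*MKIP1-YFP and 2268, 2624 and 3481 with *At*BE3-YFP. The lowest value of the cluster was near the 3′ end of *atpA*, at nt 10157 to 10174, where the log2 fold change was -1.86 (SE 0.36, edgeR adjusted p = 2.1e-04). There, *At*MKIP1-YFP pools had 239, 169 and 104 RPM and *At*BE3-YFP pools 536, 396 and 952. *At*BE3-YFP replicate 3 was the highest there, and without it the value was -1.45. The segment nt 10070 to 10114 close by was not called, at -0.51 (SE 0.25).

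Upstream of *atpF*, the outermost called segment was nt 12787 to 12811, which runs 13 nt past the start of exon 1 and reaches 158 nt from the intron. It had 501, 561 and 504 RPM with *At*MKIP1-YFP, against 287, 314 and 301 with *At*BE3-YFP, and a log2 fold change of 0.79 (SE 0.22, edgeR adjusted p = 0.0035). Without *At*MKIP1-YFP replicate 2 its adjusted p was 0.038, without replicate 3 it was 0.011, and the called region then ended 133 nt from the intron. The next segment into the spacer, nt 12812 to 12968, had 464, 451 and 545 RPM with *At*MKIP1-YFP and 685, 664 and 659 with *At*BE3-YFP. Its log2 fold change was -0.46 (SE 0.22, adjusted p = 0.057). Between this point and *atpH* the values were -0.03 at nt 12969 to 13042, -0.63 at nt 13043 to 13134 and -0.79 at nt 13137 to 13355. The lowest of the spacer was -0.83 at nt 13135 to 13136 (SE 0.28, edgeR adjusted p = 0.011). Of these segments nt 13137 to 13355 alone was called. The spacer as a whole was lower at -0.51 (SE 0.16, edgeR adjusted p = 0.0056). That call was lost without *At*MKIP1-YFP replicate 2 or 3 or *At*BE3-YFP replicate 2, with values of -0.45 to -0.48.

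The genes at the 5′ end were lower in *At*MKIP1-YFP precipitates. *atpH* was measured through the segment nt 13356 to 13584, which holds 152 of its 246 nt, while its 3′ part lies in nt 13137 to 13355. It had 1832, 1850 and 1626 RPM with *At*MKIP1-YFP, against 4678, 4394 and 4917 with *At*BE3-YFP. The pools of a bait lay within a narrow range and the log2 fold change was -1.40 (SE 0.17, edgeR adjusted p = 5.8e-07), the lowest of the features in the cluster. The length-weighted mean over both segments was -1.17. *atpI* shares the segment nt 13585 to 14901 with the *atpI*-*atpH* spacer, and had 2132, 2034 and 1790 RPM with *At*MKIP1-YFP, against 3626, 4025 and 4291 with *At*BE3-YFP. This gave -1.003 (SE 0.17, edgeR adjusted p = 3.4e-05). The segment beyond it, which runs over *rps2*, the gene of a ribosomal protein upstream of *atpI*, and on through 13709 nt, was at -0.40 (SE 0.17, adjusted p = 0.040). On the opposite strand a single segment of 18602 nt covered the cluster, at -0.74 (SE 0.19).

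These lower values have to be read against the rest of the plastid genome. Mapped reads were the library size, and the 118 tested segments outside the loci of the MatK-associated group IIA introns and outside the cluster had a median log2 fold change of -0.71. Scaled on those segments, *atpH* as measured through nt 13356 to 13584 remained lower at -0.68 (adjusted p = 4.1e-04). Its 3′ part lies in nt 13137 to 13355, which was at -0.08 (adjusted p = 0.67), and the length-weighted mean of *atpH* was -0.45. *atpI* was at -0.28 (adjusted p = 0.049), *atpA* at -0.16 (adjusted p = 0.37) and the *atpH*-*atpF* spacer at 0.21 (adjusted p = 0.13). Exon 1, the intron and exon 2 were higher with this scaling too, at 3.17, 3.72 and 2.07. Higher segments covered 145 of 145 nt of exon 1, 698 of 715 nt of the intron and 364 of 410 nt of exon 2. Segments of exon 1 and the intron not called with mapped reads thus passed. They were nt 12398 to 12596 (1.28, edgeR adjusted p = 3.6e-04), nt 12705 to 12724 (1.07, 6.5e-04) and nt 12725 to 12756 (0.81, 0.0045). Of the 92 segments 74 were then higher and 2 lower, while 78.3% of all segments were higher and 1.27% lower. The called region then reached the same 158 nt upstream, and downstream it reached 698 nt from the intron, because the segment over the start of *atpA* passed at 0.53 (adjusted p = 0.0084). TMM and DESeq2 size factors centre the libraries on the enriched loci, which hold most segments, and with them the intron alone was higher among the features, at 0.86 and 1.04, and exon 2 was lower, at -0.80 and -0.63. The features had the same order of values under each of these scalings.

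**Figure D3:**
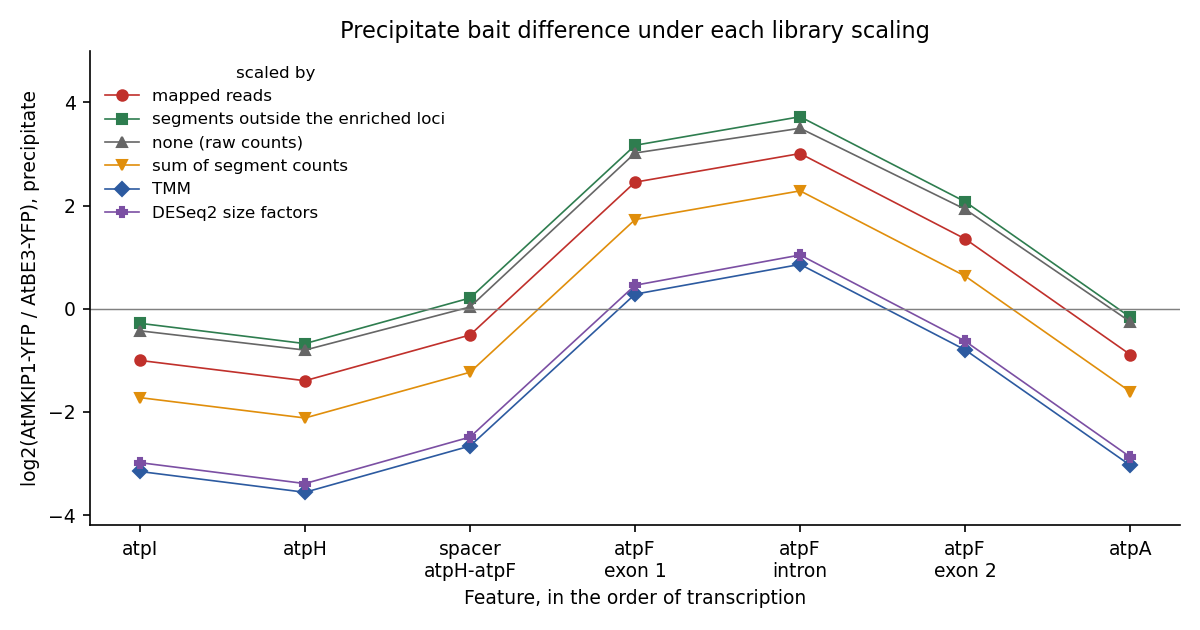
Log2 ratio of *At*MKIP1-YFP to *At*BE3-YFP in the precipitates for each feature with segments of its own, in the order of transcription, under 6 ways to scale the libraries. Each line is shifted as a whole, and in each the intron is highest and *atpH* lowest, from 3.01 to -1.40 with mapped reads as library size.

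A comparison that needs no library size sets each feature against the *atpF* intron of the same library. Exon 1 was at -0.58 on the log2 scale relative to the intron (SE 0.19, 2 SE interval -0.97 to -0.19), which had an adjusted p of 0.019 and was not called by edgeR. It was called without *At*BE3-YFP replicate 2 (-0.72) or replicate 3 (-0.58), and by DESeq2 with every library. Exon 2 was at -1.69 (SE 0.19, edgeR adjusted p = 9.3e-06). The remaining features were further below, with -3.54 for the *atpH*-*atpF* spacer, -3.95 for *atpA*, -4.04 for *atpI* and -4.44 for *atpH*, and SE of 0.19 to 0.29. Thus 5 of 6 features were below the intron, against 75.0% of the 48 features of the genome tested in this way. Summed counts weigh finely split stretches more. As length-weighted means the log2 fold changes were 1.97 for the intron, 1.41 for exon 1 and 1.20 for exon 2.

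In the inputs the cluster showed no called difference. None of 32 segments passed in edgeR, against 1.75% of all 572, while 4 had an unadjusted p below 0.05. DESeq2 likewise called 0 of them. Of the 7 features with input segments of their own, 0 passed in edgeR, as in the table as a whole (0.0% of 70). Among them 0 had an unadjusted p below 0.05 and 0 passed in DESeq2. Their log2 fold changes ran from -0.12 for the *atpI*-*atpH* spacer to 0.15 for exon 1, with SE up to 0.18, and intervals of 2 SE lay between -0.46 and 0.51. Input segments were longer over the gene body. A single one, nt 11360 to 12640, covered nearly all of the intron, exon 2 and the start of *atpA*, with 396, 434 and 464 RPM for *At*MKIP1-YFP and 495, 410 and 499 for *At*BE3-YFP. The pools overlapped, and the log2 fold change of the intron, which rests on it, was -0.11 (SE 0.17). Exon 2 has no input segment of its own. *atpH* had 417, 517 and 532 RPM at nt 13382 to 13494 with *At*MKIP1-YFP and 466, 455 and 526 with *At*BE3-YFP, and a log2 fold change of 0.02 (SE 0.17). The largest input values belonged to short segments, 0.68 (SE 0.25) at nt 12721 to 12729 in exon 1 and -1.10 (SE 0.45) at nt 12934 in the spacer. The seedlings were pooled whole, so a change in the number of cells of a type and a change in RNA per cell cannot be told apart in the inputs. Input RNA was depleted of ribosomal RNA and broken by heat in the study's protocol, which does not give these steps for precipitate RNA.

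**Figure D4:**
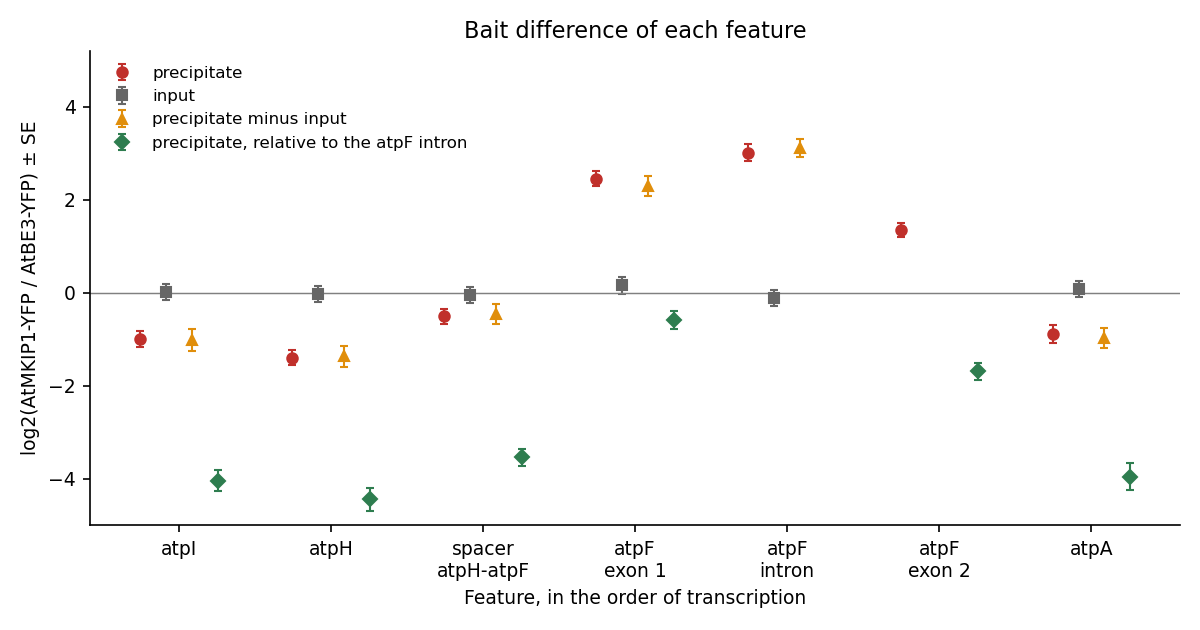
Log2 ratio of *At*MKIP1-YFP to *At*BE3-YFP ± SE for the features of the cluster in the order of transcription: in precipitates, in inputs, in precipitates less inputs, and in precipitates relative to the *atpF* intron of the same library (3 pools per bait and fraction). Input values lie near 0 and precipitate values from -1.40 to 3.01. Exon 2 has no input value, and the intron has none relative to itself. The input value of the intron rests mainly on a segment that also covers exon 2 and the start of *atpA*.

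Taking both fractions in one model, the bait difference of the intron was 3.11 higher in precipitates than in inputs on the log2 scale (SE 0.20). Its input value rests mainly on nt 11360 to 12640, which also covers exon 2 and the start of *atpA*, so unlike regions are compared. The bait difference of exon 1 was 2.30 higher (SE 0.21). It was -1.37 for *atpH* (SE 0.23), -1.02 for *atpI* (SE 0.24) and -0.97 for *atpA* (SE 0.21). These 5 of 6 features passed (edgeR, interaction of bait and fraction), 2 higher and 3 lower, where 24.2% of 33 features were higher and 57.6% lower. The *atpH*-*atpF* spacer did not pass, at -0.46 (SE 0.21, adjusted p = 0.039). For *atpH* too unlike regions are compared, nt 13356 to 13584 in precipitates and nt 13325 to 13494 in inputs. In length-weighted means its bait difference in precipitates less that in inputs was -1.13. Scaled on the segments outside the loci, *atpI* (-0.24) and *atpA* (-0.19) no longer passed.

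The plastid genome holds further ATP synthase genes in another transcription unit, *atpB* for the β subunit of CF1 and *atpE* for its ε subunit. Both lack introns, and both were lower in *At*MKIP1-YFP precipitates, at -1.22 (SE 0.19) and -1.28 (SE 0.17). All 5 intron-free ATP synthase genes were therefore lower, where 42.9% of 49 features were lower and 42.9% higher. Those 49 features include the enriched loci. The 118 tested segments outside these loci and the cluster had a median log2 fold change of -0.71, so lower values were common there. Scaled on the segments outside the loci, *atpE* (-0.56, adjusted p = 0.0028) and the segment with the 5′ part of *atpH* were still called lower. With that scaling *atpB* was at -0.49 (adjusted p = 0.027). In the inputs *atpB* was at -0.13 and *atpE* at -0.14, with SE of 0.17, and neither was called.

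The *rpl2* region, in which a group IIA intron also lies within a row of co-transcribed genes, gives a view of how the reach compares. It holds 110 precipitate segments. Relative to the *atpF* intron, the *rpl2* intron was at 0.18 (SE 0.22, adjusted p = 0.48, 2 SE interval -0.27 to 0.62), *rpl2* exon 1 at -0.54 (SE 0.27) and *rpl2* exon 2 at -0.32 (SE 0.18), and none of these was called. Higher segments covered 682 of 682 nt of the *rpl2* intron, 390 of 390 nt of its exon 1 and 400 of 435 nt of its exon 2. With mapped reads as library size, higher segments reached 158 nt upstream and 380 nt downstream of the *atpF* intron, against 601 and 793 nt for the *rpl2* intron, where they ran into the ribosomal protein genes *rpl23* and *rps19*. In length-weighted means the neighbours of *atpF* were at -1.17 for *atpH* and -0.85 for *atpA*, and those of *rpl2* at 1.14 for *rpl23* and 1.03 for *rps19*. These neighbours lie at unlike distances. A spacer of 463 nt parts *atpH* from *atpF*, and 67 nt part *atpA* from it. Closer to *rpl2* (nt 84337 to 85843) lie *rpl23*, which begins at nt 85862, and *rps19*, which reaches nt 84283. Scaled on the segments outside the loci, the reach was 158 nt upstream and 698 nt downstream of the *atpF* intron, against 720 and 793 nt for the *rpl2* intron. With TMM it was 1 and 0 nt for the *atpF* intron, against 413 and 245 nt for the *rpl2* intron. The difference in reach between the regions was not tested, and downstream its size depends on the scaling.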

How the data were processed

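RNA was sequenced from precipitates and inputs of 3 pools per line (12 libraries), and groups and replicate numbers come from the sample labels. The authors kept reads of 18 to 60 nt after Cutadapt, aligned them with STAR to the plastid genome of TAIR10 with 1 inverted repeat left out, and collapsed duplicates in UMI-tools through an 8-nt identifier. Tool versions are not given in the sources used here. Whether mapped reads of the inputs are after that step is not stated in their header. The deposited values used are raw counts of reads per segment and strand, in segments set by DiffSegR for each fraction. Deposited fold changes and p-values of the authors' own comparison were not used.

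Counts were tested in edgeR 4.0.16 (R 4.3.3) by its quasi-likelihood F test, with the number of mapped reads as library size. filterByExpr at its defaults (minimum count 10, total 15) removed low segments, and a call needed a Benjamini-Hochberg p, adjusted over the whole table, below 0.01. A feature was the sum of same-strand segments that had 50% or more of their length in it. In the interaction of bait and fraction the 12 libraries enter without a term for the pool that a precipitate shares with its input. RPM values here are counts per 1000000 mapped reads. The SE is the log2 fold change divided by the square root of F. DESeq2 1.42.0 was an alternative, and Python 3.11.15, pandas 2.3.3 and matplotlib 3.10.9 made summaries and figures. Scripts were tested on simulated data.

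Labels do not say how pools were grown apart, so p-values measure the spread between these pools. Mapped reads (119799 to 319005 in precipitates, 2213500 to 2868106 in inputs) limit the precision. Whether same-numbered pools of the baits were handled together is not stated, and the main tests do not pair them. Named are each feature, its highest and lowest segment, the outermost called segments and their neighbours, the plastid ATP synthase genes and the *rpl2* region. Other segments named were chosen after their values were seen. Members and lists were chosen with earlier results of these data known. Alternatives were other scalings, DESeq2, no filter, another threshold, other rules for the segments of a feature, a replicate block and leaving out each library.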

Additional observations from a re-analysis of the deposited data

Results flagged for a closer look

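In 5 of the 6 cluster features tested the bait difference itself differed between the fractions, by the interaction of bait and fraction in edgeR at an adjusted p under 0.01. Most features of the genome passed too, with 24.2% of 33 higher and 57.6% lower, so the count does not set the cluster apart. On the log2 scale, the bait difference in precipitates less that in inputs was 3.11 for the *atpF* intron, 2.30 for *atpF* exon 1, -1.37 for *atpH*, -1.02 for *atpI* and -0.97 for *atpA*. The input value of the intron rests mainly on a segment that also covers exon 2 and the start of *atpA*. For *atpH* too, the segments of precipitates and inputs cover unlike stretches. The same 5 features passed with the pool as a replicate block. With libraries scaled on segments outside the loci, the values of *atpI* (-0.24, adjusted p = 0.082) and *atpA* (-0.19, adjusted p = 0.36) did not pass. Groups hold 3 pools, too few to look for single libraries that stand apart.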

How the results depend on the processing

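The library scaling moved these results most. Shares over all precipitate segments are at hand for mapped reads (72.3% higher, 15.2% lower) and for scaling outside the loci (78.3% higher, 1.27% lower) only. The other counts below show how calls in the cluster move, and not how the cluster compares with all segments. With TMM and DESeq2 size factors, 19 and 24 cluster segments were higher and 28 and 26 lower in precipitates, 1 feature was higher in each, 1 feature was higher in precipitates against inputs, 145 and 192 nt were higher, 0 nt were over 4-fold, and the called region reached 1 and 19 nt upstream and 0 nt downstream. With library sizes from summed counts 18 segments were lower and 257 nt were over 4-fold. With no scaling 0 segments and 0 features were lower, 0 features were lower against inputs and 736 nt were over 4-fold. Scaled on segments outside the loci, 2 segments and 1 feature were lower (1 against inputs), 1508 nt were higher, 836 nt were over 4-fold and the reach downstream was 698 nt. Values also changed sign. Under TMM and DESeq2 size factors, exon 2 was at -0.80 and -0.63, nt 11559 to 11610 at -1.33 and -1.15, nt 12398 to 12596 at -1.58 and -1.40, nt 12725 to 12756 at -2.06 and -1.87, nt 12762 to 12786 at -0.22 and -0.031, and nt 12787 to 12811 at -1.36 and -1.18. The *atpH*-*atpF* spacer was at 0.033 with no scaling and 0.21 when scaled outside the loci, where nt 11241 to 11558 was at 0.53.

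With segments wholly inside a feature, 1 feature was lower, 1 was lower against inputs and 3 were below the intron, of 5, 4 and 4 measured. With every overlapping segment 5 of 10 were lower against inputs and 9 of 9 below the intron. Without each library in turn, 68 to 70 segments were higher and 10 to 13 lower, 862 to 939 nt were higher, 388 to 491 nt were over 4-fold, and the reach was 133 to 158 nt upstream and 328 to 380 nt downstream. The input counts were 0 in every alternative run. Same-numbered pools of the baits come from different lines, and whether they were handled together is not stated. Their deviations correlated at -0.12, 0.12 and -0.15 in precipitates and 0.11, 0.04 and -0.12 in inputs, which cannot settle it. The replicate block gave 69 segments higher and 11 lower, 3 features higher and 3 lower, with the *atpH*-*atpF* spacer no longer called, and 5 below the intron; the pool as block left 2 higher and 3 lower against inputs. Counts of a few reads in the *At*BE3-YFP intron limit what can be said of its emptiest parts.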
